A study of Mus musculus with 13 samples.

Results

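Ribosome footprints of NIH3T3 cells, an immortalised mouse embryo fibroblast line, were compared between 7 h and 2 h of treatment with 200 nM thapsigargin (Tg), an inhibitor of the SERCA calcium pump that causes ER stress. The ratio holds no untreated library, so it follows the passage from early to late stress directly. A gene was taken as expressed when its TPM averaged at least 2 across the 3 NIH3T3 libraries, untreated, 2 h and 7 h. TPM is a gene's share of 1 library corrected for coding length, so a change means a gain or loss relative to the other genes. The paper's polysome profiles of NIH3T3 cells showed translation repressed at 2 h and partly relaxed at 7 h. A change in share is therefore not a change in footprints per cell. The rule took 10117 of the 22406 genes in the tables. TPM values below 4 were raised to 4, and LFC is the log2 ratio of 7 h over 2 h.

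The study asked how PERK, a kinase that senses ER stress, shapes the acute and chronic response. It held 13 footprint libraries, 1 for each condition. The late NIH3T3 library is 7 h by its label and the study's methods, while a column heading of a supplementary table gives 8 h. Beside the 3 of NIH3T3 cells there were 5 of PERK WT mouse embryonic fibroblasts (MEFs) and 5 of PERK -/- MEFs, a PERK knockout by their label, each untreated or given 1 µM Tg during 1, 2, 5 or 8 h. NIH3T3 cells were kept in DMEM supplemented with FBS (10%), and the medium of the MEFs also held non-essential amino acids and beta-mercaptoethanol. The NIH3T3 libraries held 11121006 (control), 2569965 (2 h) and 5756011 (7 h) expected counts, with medians of 369, 85 and 182 counts per expressed gene. A limit of 3 counts corresponded to 0.270, 1.17 and 0.521 CPM, counts scaled to the library total. There was no replicate, so differences compare these libraries and none could be set against a spread between cultures. Each count LFC below is the log2 ratio of a gene's counts divided by the library totals. It carries a 95% exact interval that covers counting error alone. Footprints follow both the amount of an mRNA and its translation, and mRNA levels were not analysed here.

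The unfolded protein response (UPR) answers misfolded proteins in the ER through the sensors PERK, IRE1 and ATF6. PERK phosphorylates the initiation factor eIF2α, which lowers general translation while ATF4 and then CHOP (Ddit3) and the phosphatase subunit GADD34 (Ppp1r15a) are made. IRE1 splices Xbp1 mRNA and ATF6 is cleaved in the Golgi, and the resulting factors bind the ER stress response element (ERSE) in promoters of ER chaperone genes.

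From 2 h to 7 h, most genes of the ER folding and quality control machinery gained footprints relative to the other genes, the greater part by less than 2-fold. Creld2 (LFC 1.78) and the abundant chaperone Hspa5 (LFC 1.29) were among those that rose by more than 2-fold. Atf4 and Ddit3, high at 2 h, fell by 1.5 and 1.51 on the log2 scale but stayed above their untreated levels. The BMP-responsive gene Id1 (LFC -2.65), most sterol synthesis and histone genes and all 13 mitochondrially encoded proteins lost footprints relative to the other genes. The histone genes lost less where near-identical copies were left out. In total 480 genes were at least 2-fold higher (4.74% of the expressed genes) and 587 at least 2-fold lower (5.80%). These shares are the background for the lists below.

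The NIH3T3 libraries were first checked for their cell type. Of 10 fibroblast markers 9 were expressed, all but Col3a1, with a summed TPM of 9059 without Tg, 8955 at 2 h and 5414 at 7 h. Of these 9, 3 were higher and 6 lower at 7 h than at 2 h (median LFC -0.20, and -0.37 with CPM), and their share of the counts fell in both intervals (1.98%, 1.37% and 1.11%). Most of the drop in TPM after 2 h came from S100a4, a calcium-binding protein, which had a TPM of 4035, 5328 and 1823 (LFC -1.55). It was the most abundant marker without Tg and at 2 h. The intermediate filament gene Vim was at 1549, 1698 and 1872 TPM and the collagen gene Col1a2 at 1939, 1050 and 883. Markers of other cell types were scarce. Epithelial markers summed to 31.3, 36.3 and 19.0 TPM, with 2 of 8 expressed (Krt8 and Krt14) and 4 at 0 at both 2 h and 7 h. Leukocyte markers summed to 48.9, 50.02 and 12.7 TPM, nearly all of it Lyz2 (46.8, 48.5 and 12.4 TPM), while 5 of 8 were at 0 at both times. Endothelial markers summed to 3.40, 2.67 and 1.64 TPM with Cdh5 as the most abundant and 3 of 6 at 0, muscle markers to 11.1, 8.94 and 3.75 TPM with Des as the most abundant and 3 of 6 at 0, and adipocyte markers to 2.31, 1.95 and 3.12 TPM with none of 6 expressed and 4 at 0. The part of S100a4 or Lyz2 in other results was not tested. Since footprints came from whole cultures, fewer cells with a transcript and a smaller share of the footprints in each cell cannot be told apart.

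Over all expressed genes the change was small and centred near 0. The median LFC was 0.06, with quartiles of -0.28 and 0.44, and 5450 genes were higher, 4053 lower and 614 equal at 7 h. The count interval lay above 0 in 437 of the 480 genes called higher and below 0 in 572 of the 587 called lower. Low values matter here, because 91 of the higher genes had a 2 h TPM below the floor and 203 of the lower genes a 7 h TPM below it. Among genes with 50 to 200 counts summed over both libraries, 194 of 3084 were called higher and 297 lower, against 60 and 54 of 1702 genes with at least 1000 counts. The balance of the calls differed between settings. Higher genes made up 45.0% of the calls with TPM, 24.2% with CPM and a floor of 4 CPM (294 higher, 919 lower), 25.2% with CPM after the 7 h library was thinned to the 2 h total (326 and 968), and 33.0% with TMM factors on CPM (387 and 787). TMM factors (54.6%, 614 and 510) and size factors of DESeq2 (55.0%, 626 and 512), both computed from counts, were otherwise applied to TPM. The TPM ratio already lay above the count ratio by a median of 0.12 (log2), to which these factors add, so the majority of higher calls under them is uncertain. With TPM and no such factors, higher genes were also the majority among genes with at least 100 summed counts (54.8%, 351 and 290). At a 1.5-fold threshold higher genes made up 54.8% of the calls (1721 and 1421). With CPM both the scaling and the unit of the floor change, and their parts were not tested.

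At the threshold the calls separate genes with almost equal LFC. Just inside it among the higher genes were Ppme1 (22.7 TPM at 2 h, 45.3 at 7 h), Agtrap, Pde4dip, Sec24a and Lrig3, and just outside it Rpl13a (1712 and 3422 TPM), Clint1, Map1b, Dnajb5 and Frmd8, all with an LFC of 1.00. Just inside among the lower genes were Blm, Poll, Hist1h2ba (152 and 76.0 TPM), Ube2c (492 and 246 TPM) and Tcaf2, and just outside Zfp275 (17.7 and 8.85 TPM), Dnph1, Vrk2, Sertad2 and Zfp626, with LFC from -1 to -0.99. Some of these LFC are alike only through the floor, since Zfp626 went from 7.97 to 0.97 TPM (count LFC -3.25) and Vrk2 from 7.98 to 1.74 (count LFC -2.16), whereas Blm, inside the threshold, went from 8.00 to 3.54 (count LFC -1.31).

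**Figure D1:**
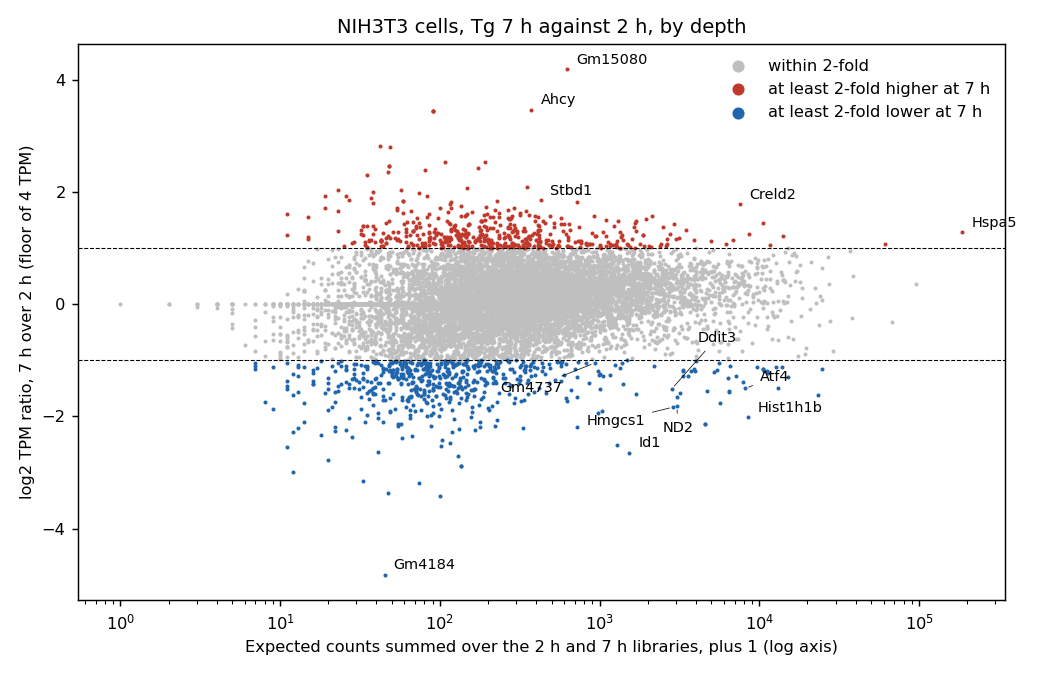
LFC of TPM (7 h over 2 h, floor of 4) of the 10117 expressed genes against their expected counts summed over the 2 h and 7 h libraries plus 1 (log axis). Points are genes, dashed lines mark 2-fold, red and blue points are the 480 higher and 587 lower genes, and the extremes are at LFC -4.82 (Gm4184) and 4.18 (Gm15080). Many of the large changes lie at low counts, though not that of Gm15080 (622 counts), and Hspa5 is the most deeply covered of the genes called higher.

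In the plot of LFC by depth the extreme ratios belong to weakly covered or duplicated genes. Gm4184 and Gm15080, picked out after their values were seen, went from 44 to 0 and from 0 to 622 counts, and 95.8% of the coding 28-mers of Gm15080 also occur in another gene. Ahcy, which hydrolyses S-adenosylhomocysteine in the methionine cycle, went from 2.57 to 44.2 TPM (LFC 3.46) and from 10 to 363 counts. Its near-identical copy Gm4737, also picked out after its values were seen, held 465 and 463 counts and shares 93.0% of its 28-mers. With both summed, the TPM was 159 without Tg, 119 at 2 h and 101 at 7 h (LFC -0.25, count LFC -0.37, interval -0.53 to -0.20). The rise assigned to Ahcy was therefore absent from the sum of the pair, and its own value is uncertain. In all, 383 expressed genes shared at least 50% of their coding 28-mers with another gene, 31 of them called higher and 66 lower.

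The UPR regulators did not move in one direction. Atf4, the transcription factor translated under eIF2α phosphorylation, was at 178 TPM without Tg, 1491 at 2 h and 527 at 7 h (LFC -1.5, count LFC -1.62, interval -1.68 to -1.56). Ddit3, the pro-apoptotic factor CHOP, was at 47.2, 1086 and 383 TPM (LFC -1.51, count LFC -1.63, interval -1.73 to -1.52). Both were highest at 2 h and remained above the control at 7 h. Ppp1r15a, which directs dephosphorylation of eIF2α, was at 10.96, 81.0 and 118 TPM (LFC 0.54, count LFC 0.42, interval 0.27 to 0.57), so it was still higher at the late time. Xbp1 was at 104, 290 and 438 TPM (LFC 0.60, count LFC 0.52, interval 0.41 to 0.62). Eif2ak3, which encodes PERK, was at 10.8, 6.27 and 26.8 TPM. Its TPM gave an LFC of 2.09, but its counts went from 66 to 286 and gave a count LFC of 0.95 (interval 0.56 to 1.36), so the size of its rise differs between the 2 measures.

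**Figure D2:**
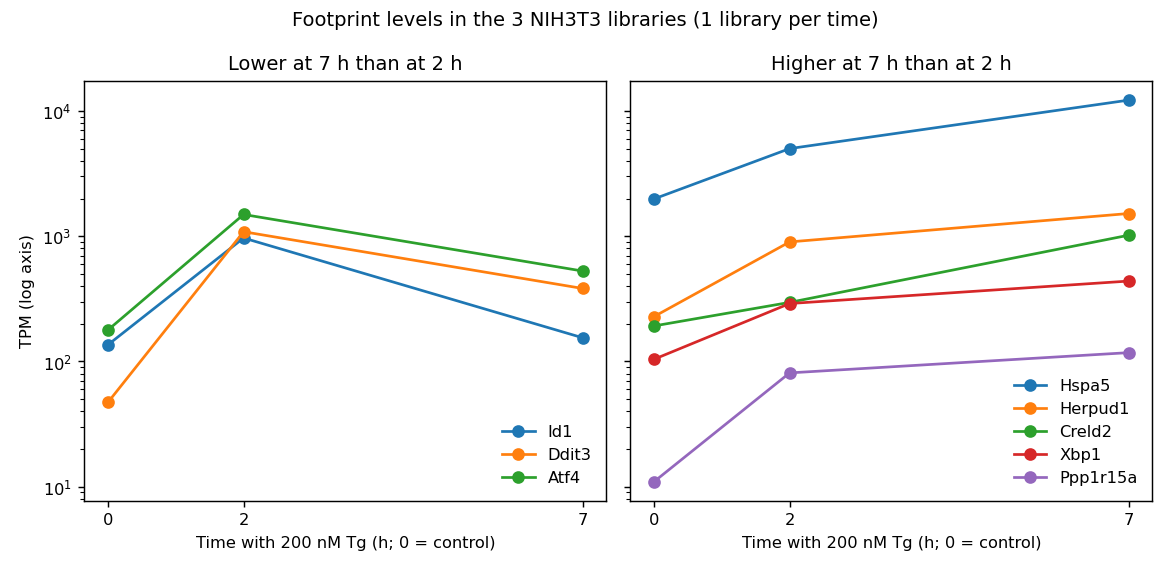
TPM (log axis) of 8 genes in the 3 NIH3T3 libraries at 0 (control), 2 and 7 h of 200 nM Tg, 1 library per time, with lines joining the times. Id1, Ddit3 and Atf4 peak at 2 h, while Hspa5, Herpud1, Creld2, Xbp1 and Ppp1r15a are highest at 7 h.

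Targets of ATF4 and CHOP were divided. Of 19 expressed genes of this stress response list 14 were higher and 5 lower, with a median LFC of 0.34 against 0.06 over all genes. Those at least 2-fold higher were Gdf15, Sesn2, Bbc3 and Trib3, and those at least 2-fold lower were Atf4 and Ddit3 themselves. Trib3 (LFC 1.08) was not past 2-fold in counts (count LFC 0.96). Gdf15, a secreted stress cytokine, went from 6.13 to 33.0 TPM (LFC 2.43) on only 15 and 158 counts (count LFC 2.23, interval 1.47 to 3.10). The list of UPR sensors and transcription factors had 9 of 11 genes higher (median 0.57), of which Eif2ak3 and Atf6 passed 2-fold, and Creb3l1 and Mbtps2 lower by an LFC of 0.01. The eIF2α kinases and phosphatase subunits had 10 of 13 higher (median 0.21, and 0.09 with CPM). In that list Eif2ak3 and Dnajc3, an inhibitor of PERK, passed 2-fold upward and Eif2ak2, the kinase PKR that is activated by double-stranded RNA, fell (19.4 to 6.86 TPM, LFC -1.5).

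ER chaperones held a larger share of all footprints at 7 h. The 28 chaperones and co-chaperones held 2.197% of the counts without Tg, 2.83% at 2 h and 5.27% at 7 h. The gain up to 2 h came from Hspa5 (0.440%, 1.21% and 2.71%), since the other 27 together held 1.76%, 1.63% and 2.56%. Of all 28, Hspa5 included, 25 were higher at 7 h than at 2 h and 7 at least 2-fold (25%, against 4.74% of all genes). None of the 28 was 2-fold lower, and the median LFC was 0.46 (0.30 with CPM of the thinned library). Dnajc1, Sil1 and Sdf2 were the 3 with lower values. Hspa5, the chaperone BiP that binds unfolded proteins and holds the UPR sensors inactive, was at 1985, 5008 and 12211 TPM, with counts of 30983 at 2 h and 155872 at 7 h (count LFC 1.17, interval 1.15 to 1.19). Creld2, an ER-resident protein with disulfide isomerase activity, was at 192, 296 and 1019 TPM, with counts of 940 and 6668 (count LFC 1.66, interval 1.56 to 1.76). Both genes thus rose in both intervals, by more TPM after 2 h than before it.

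The other steps of the secretory pathway were also mostly higher. In ER-associated degradation, which exports misfolded proteins to the proteasome, 24 of 27 genes were higher and 6 at least 2-fold (median 0.59). Ube2g2, a ubiquitin-conjugating enzyme of this route, had the largest rise (176 to 402 TPM, LFC 1.19), Herpud1, a membrane component of the export complex, was the most abundant (900 to 1518 TPM, LFC 0.75), and Selk, Ufd1l and Rnf5 were lower. Of the 37 genes of translocation and N-glycosylation 35 were higher (median 0.46), among them Serp1, a translocon-associated protein (522 to 1465 TPM, LFC 1.49), and 2 lower, Srp9 and Srp14. ER-Golgi transport had 38 of 41 higher (median 0.51), with the COPII coat subunit Sec23b at the top (55.1 to 144 TPM, LFC 1.38) and Bet1, Sec24c and Arf4 lower. Protein disulfide isomerases and oxidoreductases were less uniform, with 14 of 20 higher and a median of 0.23 (0.11 with CPM). The oxidase Ero1lb rose from 4.78 to 14.6 TPM (LFC 1.61), Pdia3 was at 1228 and 2194 TPM (LFC 0.84), and the thioredoxin-related Tmx4 fell from 14.9 to 3.85 TPM (LFC -1.90) on 45 and 24 counts. Among genes of ER calcium handling the pump that Tg blocks, SERCA2 (Atp2a2), was the only one past 2-fold (172, 116 and 244 TPM, LFC 1.07, but count LFC 0.96), and 12 of 17 were higher (median 0.15, and 0.03 with CPM). Known targets of IRE1-dependent mRNA decay had 3 of 10 higher and 7 lower (median -0.19, and -0.34 with CPM).

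Promoters of several of these genes hold the ER stress response element. Windows of 250 bases before to 50 bases after the gene start, from RefSeq on GRCm38.p6, were found for 8161 expressed genes (80.7%). They were searched on both strands for ERSE, written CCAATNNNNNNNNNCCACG. It occurred in 39 of 32851 promoters (0.119%) and in 13 of the 8161 (0.159%). All 13 were higher at 7 h in TPM (12 in counts), 6 of them at least 2-fold, with a median LFC of 0.88 against 0.06 over the 8161. In counts 4 of the 6 were past 2-fold, and Alg12 (count LFC 0.94) and Hsp90b1 (count LFC 0.95) were not. The lowest, Pan2 (LFC 0.08), had a count LFC of -0.07 (interval -0.41 to 0.27), so its direction depends on the measure. The 13 comprise Creld2, Ero1lb, Dnajc3, Hspa5, Alg12, Hsp90b1, Pdia6, Zfp57, Syvn1, Calr, Canx, Hnrnpa3 and Pan2, of which several are chaperones already counted above, and those outside the lists were chosen after their values were seen. A match describes letters in the window and not a bound site. The share of higher genes with a motif is not given, because only 77.1% of them had a promoter window.

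The stretches below come from the 6 ERSE genes past 2-fold in TPM and are shown so that the shared letters can be compared. Each has 60 bases around a match upstream of the gene start, read 5′ to 3′ on the gene's strand. The outer letters of ERSE are in capitals (on the opposite strand they read CGTGG and ATTGG). Creld2, at chr15:88819500-88819559 on the plus strand, has LFC 1.78:
Creld2: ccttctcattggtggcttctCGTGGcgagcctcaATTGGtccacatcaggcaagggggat
Alg12, a mannosyltransferase of N-glycan assembly, lies head to head with it and reads nearly the same bases at chr15:88819499-88819558 on the minus strand (23.2 to 51.4 TPM, LFC 1.15), so this is 1 element counted for both genes:
Alg12: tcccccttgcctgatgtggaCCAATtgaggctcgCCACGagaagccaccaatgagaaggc
Ero1lb (Ero1b in RefSeq) is at chr13:12565662-12565721 on the plus strand:
Ero1lb: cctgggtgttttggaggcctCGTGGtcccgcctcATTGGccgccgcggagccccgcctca
Dnajc3 is at chr14:118937807-118937866 on the plus strand (121 to 300 TPM, LFC 1.32):
Dnajc3: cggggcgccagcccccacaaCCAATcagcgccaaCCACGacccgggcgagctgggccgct
Hspa5 is at chr2:34772005-34772064 on the plus strand:
Hspa5: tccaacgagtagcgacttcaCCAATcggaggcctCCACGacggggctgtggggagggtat
Hsp90b1, the ER chaperone GRP94, is at chr10:86705617-86705676 on the minus strand (1497 to 3140 TPM, LFC 1.07), and its window holds 2 matches, of which 1 is shown:
Hsp90b1: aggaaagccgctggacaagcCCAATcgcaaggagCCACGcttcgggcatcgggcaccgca

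**Figure D3:**
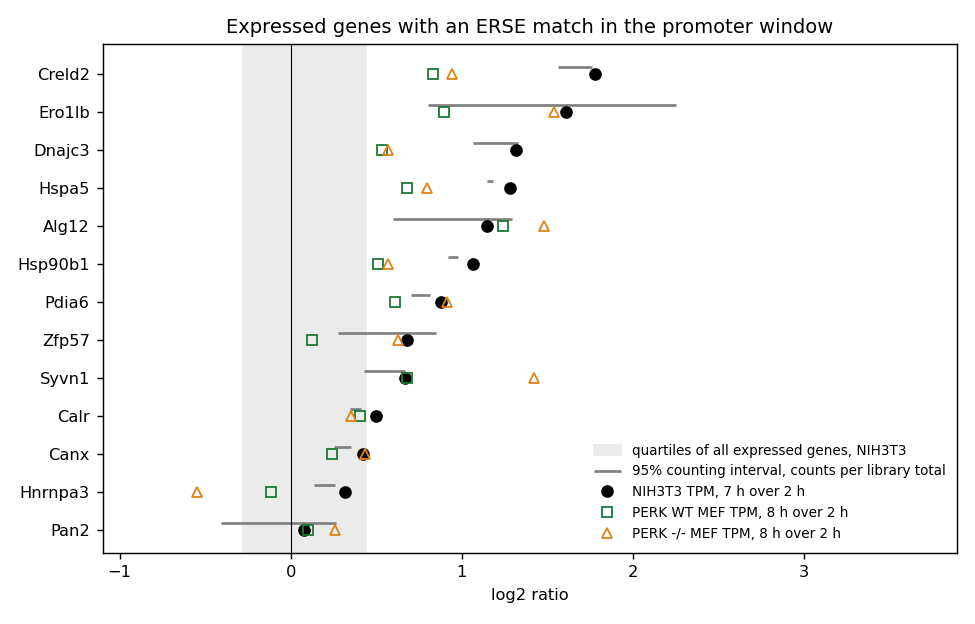
LFC of TPM (7 h over 2 h in NIH3T3, 8 h over 2 h in the MEF lines) of the 13 expressed genes with an ERSE match. Grey bars are 95% counting intervals of the NIH3T3 count ratio, which lies slightly below the TPM ratio, and the band spans the quartiles of all expressed genes (-0.28 to 0.44). All 13 NIH3T3 points are above 0 in TPM (Pan2 is below 0 in counts), as are 12 of 13 in each MEF line, with Hnrnpa3 below 0 in both.

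Other elements of the stress response went with smaller values. Genes with the ATF4-linked element TGATGNAA (3.97% of all promoters, 2.56% of the 8161 expressed) numbered 209 and had a median LFC of 0.13. Of the 209, 10 were at least 2-fold higher and 8 lower, against 370 and 474 of the 8161. Those with TGACGTGG (UPRE, 0.676% of all promoters, 1.04% of the 8161) numbered 85, with a median of 0.26. The 317 with TGACGTCA (CRE, 1.79% and 3.88%) had a median of 0. The sterol element ATCACCCCAC occurred in only 3 expressed genes. None of these motifs was shared with an ERSE promoter.

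Most genes of amino acid supply and tRNA charging, which include known targets of ATF4, were higher at 7 h but few by 2-fold, while Atf4 itself fell. All 20 cytosolic aminoacyl-tRNA synthetases were higher at 7 h, with a median of 0.59, and only Wars passed 2-fold (75.7 to 160 TPM, LFC 1.07), though not in counts (count LFC 0.95). The alanine enzyme Aars was the most abundant (272 to 500 TPM, LFC 0.88). Of 19 amino acid transporters 14 were higher (median 0.42, and 0.23 with CPM). The cystine transporter Slc7a11 (24.2 to 65.0 TPM, LFC 1.42), its partner Slc3a2 (526 to 1226 TPM, LFC 1.22) and Slc7a5 passed 2-fold, and Slc6a6, the taurine transporter, and Slc38a4 were lower. Enzymes of amino acid and one-carbon metabolism had 22 of 25 higher (median 0.52), with Got1, an aspartate aminotransferase, past 2-fold (123 to 292 TPM, LFC 1.25) and Glul and Psat1 lower. Asparagine synthetase, Asns, was at 446, 417 and 693 TPM (LFC 0.73).

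Genes of the translation machinery were mostly higher, by less than 2-fold. Of 76 ribosomal protein genes 66 were higher and none passed 2-fold in either direction (median 0.38), although Rpl13a lay just under it with an LFC of 1.00, and together with 1 gene below the expression limit they held 6.83% of the counts without Tg, 6.17% at 2 h and 7.61% at 7 h. Rps26, the most abundant, was at 3903 TPM at 2 h and 4793 at 7 h (LFC 0.30). Initiation and elongation factors had 38 of 43 higher (median 0.40), with Eef2 at 905 and 1738 TPM (LFC 0.94). The 5 lower ones were Eif4a2, Eif4h, Eif4b, Eif3l and Eef1d, and only the helicase Eif4a2 passed 2-fold (578 to 254 TPM, LFC -1.19). Subunits of the mitochondrial ribosome (49 of 77 higher, median 0.18), the proteasome (25 of 36, median 0.15) and nuclear-encoded oxidative phosphorylation (41 of 78, median 0.08) lay closer to the background. With CPM these medians were 0.04, 0.03 and -0.02.

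**Figure D4:**
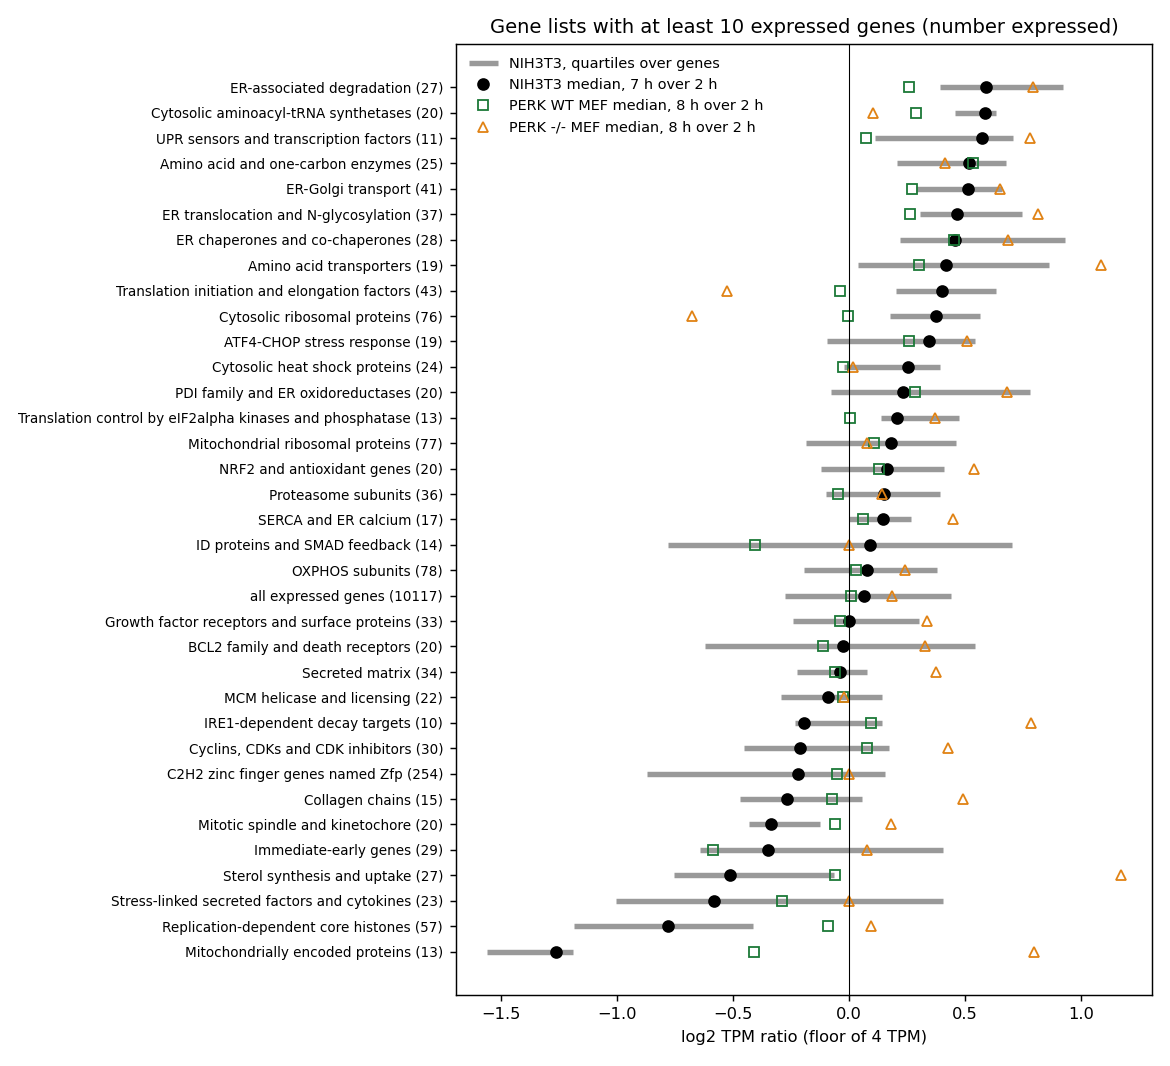
Median LFC of lists with at least 10 expressed genes (number in brackets), in NIH3T3 (black points, grey bars between the quartiles over genes) and in PERK WT (squares) and PERK -/- MEFs (triangles). ER-associated degradation and the cytosolic aminoacyl-tRNA synthetases are highest in NIH3T3 (both 0.59), in an order that differs between settings. The mitochondrially encoded proteins are lowest (-1.26), and all expressed genes are at 0.06.

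Among single genes, the 15 largest rises with at least 200 summed counts and like TPM and count ratios came from varied functions. Stbd1, which tethers glycogen to membranes, led with 16.7 and 60.1 TPM (LFC 1.85, 51 and 379 counts). It was followed by the lipid kinase Pi4k2b (LFC 1.84) and Nfkbib, an inhibitor of NF-κB (26.7 to 94.2 TPM, LFC 1.82). Creld2 belonged to the 15 and alone among them had more than 100 counts at 2 h. Stard5, a sterol-binding protein (LFC 1.72), the RNA-binding Mex3b, the lysolipid transporter Mfsd2a, the methyl-CpG binding Mbd2, the mitochondrial calcium regulator Mcur1, Adck5, the ER-shaping Zfyve27, Tnfaip2, Nfxl1, the complex I assembly factor Nubpl and Cdkn2aip (LFC 1.57) completed the set.

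Under the same limits on counts and ratios Id1 had the largest fall. This inhibitor of differentiation, a target of BMP and SMAD signalling, was at 136 TPM without Tg, 968 at 2 h and 155 at 7 h (LFC -2.65, count LFC -2.78, interval -2.95 to -2.61), so it had returned near its untreated level. Its relatives Id4 and Id3 also fell, Id3 from 3108 to 1347 TPM (LFC -1.21), while 8 of the 14 genes of the ID and SMAD feedback list were higher, Tgif1 the most (LFC 0.99), and the median was 0.09. It was 0.41 where the mean TPM reached 5 or the summed counts 100, and 0 with CPM of the thinned library. Irf1, an interferon-regulatory factor (52.8 to 11.7 TPM, LFC -2.17), Cflar, an inhibitor of caspase-8 (79.8 to 23.4 TPM, LFC -1.77), the scaffold gene Disc1 (LFC -2.18), the zinc finger genes Mynn (LFC -2.06) and Zfp60, Gm15107 and Gm25380 were further members of the 15 largest falls. Gm15107 shares 97.9% of its 28-mers with another gene. The remaining falls belonged to histone genes, Hmgcs1 and ND2.

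Immediate-early genes, which respond to growth and stress signals within minutes, were lower in 19 of 29 cases (median -0.35). Egr1 went from 5.39 TPM in the control to 74.9 at 2 h and 23.4 at 7 h (LFC -1.67), and the abundant matrix protein Ctgf from 960 to 1783 and 1141 (LFC -0.64). Those at least 2-fold lower numbered 6, while Klf9 (LFC 1.39) and Gadd45a rose past 2-fold. Secreted stress factors and cytokines had 15 of 23 lower (median -0.58), 6 of them at least 2-fold. The cytokine Lif was lowest at 14.5 and 1.69 TPM (LFC -1.86), on 25 and 6 counts. The opposite direction was taken by Fgf21, a metabolic hormone induced by stress (4.47 to 17.6 TPM, LFC 1.98, 8 and 65 counts), Tgfb2, Vegfa and Vegfb, all at least 2-fold higher.

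Sterol synthesis and uptake genes were mostly lower, 21 of 27, with 6 at least 2-fold (22.2%, against 5.80% of all genes), and the median LFC was -0.51. Hmgcs1, which makes HMG-CoA for the mevalonate pathway, went from 191 TPM in the control to 376 at 2 h and 106 at 7 h (LFC -1.83, count LFC -1.95, interval -2.06 to -1.84). The farnesyl diphosphate synthase Fdps, the most abundant, was at 582, 539 and 542 TPM (LFC 0.01) but shares 84.6% of its 28-mers with another gene, so its value is uncertain, and Scap, the escort protein of SREBP, was highest with an LFC of 0.58. Together the 28 measured genes of the list held 0.496%, 0.532% and 0.335% of the counts, so it lay below the untreated share at 7 h.

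Histone genes of the replication-dependent type were lower in 51 of 57 cases, 21 at least 2-fold, with a median of -0.78. Such genes lie in near-identical copies, and 49 of the 57 share at least 50% of their 28-mers with another gene. Hist1h2br and Hist1h2bq carry the same values, 2967 and 680 TPM (LFC -2.13), and Hist1h2bf, at 983 and 174 TPM, had an LFC of -2.50 with 89.2% shared. Without shared genes the median was -0.28. The sum over copies does not depend on how reads were split among them, and over the 61 measured genes it was 2.76% of the counts without Tg, 6.21% at 2 h and 3.19% at 7 h. The linker histone Hist1h1b, with 4.67% shared, went from 1095 TPM to 2944 and 731 (LFC -2.01), and Hist4h4, the most abundant core histone gene, from 2455 to 12170 and 7088 (LFC -0.78). The histone share was thus highest at 2 h and closer to its untreated value at 7 h. The 4 genes past 2-fold upward were Hist1h2ag, Hist1h2ao, Hist1h2ap and Hist1h2aa, and the first 3 hold identical values of 0 and 89 counts and share all of their 28-mers.

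A similar course was seen for the 13 proteins encoded in mitochondrial DNA, a group that was chosen after its values were seen. All 13 were at least 2-fold lower at 7 h, with a median of -1.26. With the trend on coding GC content removed all 13 stayed lower (median -0.96), but 8 of them, COX1 included, then lay within 2-fold and 5 past it. COX1, a catalytic subunit of cytochrome c oxidase, was at 847, 2668 and 1193 TPM (LFC -1.16), and ND2, a complex I subunit, at 184, 615 and 174 (LFC -1.82). As a group they held 0.511% of the counts without Tg, 1.93% at 2 h and 0.722% at 7 h. The 84 measured nuclear-encoded subunits of the same complexes held 1.59%, 1.37% and 1.42%, so the peak at 2 h was seen in the mitochondrial products and not in theirs.

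**Figure D5:**
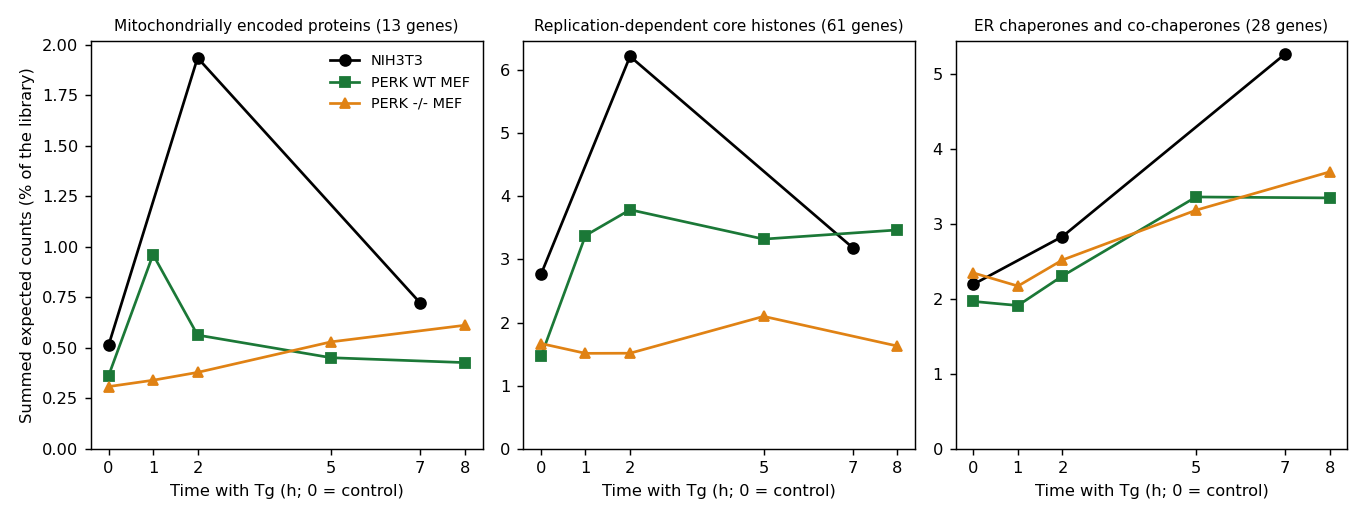
Summed expected counts of the mitochondrially encoded, core histone and ER chaperone genes as a percentage of each of the 13 libraries, against time with Tg (0 is the control). Points are single libraries and lines join the times of a cell line. In NIH3T3 (circles) the mitochondrial share goes from 0.511 to 1.93 and 0.722%, the histone share from 2.76 to 6.21 and 3.19%, and the chaperone share from 2.197 to 2.83 and 5.27%.

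Cell cycle lists had medians below 0, of which that of replication licensing was close to it. Mitotic spindle and kinetochore genes were lower in 17 of 20 cases (median -0.34), most of all the checkpoint kinase Bub1b (24.4 to 15 TPM, LFC -0.70). Cyclins, CDKs and their inhibitors had 19 of 30 lower (median -0.21, and -0.11 among genes with at least 100 summed counts), with the mitotic cyclin Ccnb2 past 2-fold (12.9 to 4.25 TPM, LFC -1.6) and the inhibitor Cdkn1a at 240 and 376 TPM (LFC 0.65). Replication licensing genes had 16 of 22 lower (median -0.09, and -0.0079 with TMM and -0.0042 with DESeq2 factors, but -0.21 with CPM), with Cdc6 at 72.0 and 32.4 TPM (LFC -1.15) and Orc3 at 13.9 and 34.2 TPM (LFC 1.30, count LFC 0.82). Zinc finger genes named Zfp, of which 254 were expressed, had 154 lower and 49 at least 2-fold lower (19.3%), and 83 higher, 6 of them at least 2-fold, with a median of -0.22. They were weakly covered, with a median of 53.5 counts at 2 h. Among all genes with 50 to 200 summed counts 9.63% were called lower, against 5.80% of all expressed genes. The part of depth in the Zfp calls was not tested. The Zfp median depended on the setting, at -0.0036 without a filter on low values, -0.11 with the GC trend removed, -0.40 with a floor of 1 TPM and -0.51 with CPM.

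Lists of matrix, surface, death and stress genes had medians between -0.27 and 0.25. Secreted matrix genes had 12 of 34 higher and 20 lower (median -0.04), with Igfbp7 lowest (21.6 to 5.42 TPM, LFC -1.99), and their median was 0.02 with TMM or DESeq2 factors and -0.17 with CPM. Collagen chains had 4 of 15 higher and 10 lower (median -0.27, and 0 without a filter), and the abundant Col1a2 had 1939, 1050 and 883 TPM (LFC -0.25). Growth factor receptors and surface proteins had 16 higher and 16 lower of 33 (median 0, and -0.19 with CPM of the thinned library but 0.08 with TMM or DESeq2 factors), and integrins 3 and 3 of 9 (median 0). The integrin median was below 0 in other settings, at -0.27 with a floor of 1 TPM, -0.34 with CPM, -0.31 with TMM factors on CPM and -0.502 with CPM of the thinned library. The BCL2 family and death receptors had 9 of 20 higher and 10 lower (median -0.03, and 0.01 and 0.02 with TMM and DESeq2 factors). Their median was -0.25 with a floor of 1 TPM, with a pseudocount, and where the mean TPM reached 5 or the summed counts 100. In that family the survival gene Bcl2l1 (22.8 to 9.38 TPM, LFC -1.28, 46 and 39 counts) and Casp12 were at least 2-fold lower. The survival gene Bcl2l2 (6.78 to 18.6 TPM, LFC 1.45, 11 and 62 counts, 73.6% of its 28-mers shared) and Bbc3 were at least 2-fold higher, and the most abundant member, Bax, had an LFC of 0.51. Cytosolic heat shock proteins had 17 of 24 higher (median 0.25, and 0.06 with CPM) but their most abundant member Hspa8 was lower (1497 to 1152 TPM, LFC -0.38). Antioxidant and NRF2 genes had 13 of 20 higher (median 0.16, and 0.06 with CPM), and of these Slc7a11, the autophagy receptor Sqstm1 (356 to 846 TPM, LFC 1.25) and the heme oxygenase Hmox1 (214 to 485 TPM, LFC 1.18) were at least 2-fold higher and the sulfiredoxin Srxn1 lower (34.5 to 12.1 TPM, LFC -1.52).

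Sequence features of the called genes were set beside those of all expressed genes, which include them. A coding sequence was matched for 9905 expressed genes (97.9%). Across these genes, which are not independent replicates and share the same 2 libraries, the Spearman correlation of LFC was 0.02 with coding GC content and 0.01 with coding length. Median GC content was 54.3% in higher, 52.0% in lower and 52.6% in all genes, and median coding length was 1179, 1083 and 1356 bases, so both called groups had shorter coding sequences. A hydrophobic stretch near the N terminus, as in signal peptides, was predicted from the translated sequence for 20.3% of the higher, 16.3% of the lower and 15.9% of all genes. The 1572 genes with such a stretch had a median LFC of 0.02, against 0.07 in the 8333 others.

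The MEF lines give the nearest comparison, 8 h against 2 h, with another cell line, medium, Tg dose and late time. Of the 10117 genes 9367 were also expressed in MEFs. In PERK WT MEFs 86 of them were at least 2-fold higher (0.918%) and 51 lower (0.544%), and in PERK -/- MEFs 1067 were higher (11.4%) and 193 lower (2.06%). Of the 480 genes higher in NIH3T3 418 were among the 9367. Their median LFC was 0.21 in PERK WT MEFs, where all genes had 0.01, and 18 were at least 2-fold higher, 4.31% of the NIH3T3 genes and 20.9% of those of WT MEFs. In PERK -/- MEFs the median was 0.29, where all genes had 0.19, and 80 were higher, 19.1% of the NIH3T3 genes and 7.498% of those of PERK -/- MEFs. At least 2-fold lower were 5 (1.20%) and 11 (2.63%) of the 418 in PERK WT and PERK -/- MEFs. Of the 587 lower genes 507 were measured, with a median of -0.05 in PERK WT and 0.28 in PERK -/- MEFs, and 11 were at least 2-fold lower in each, 2.17% of the NIH3T3 genes and 21.6% and 5.70% of those of the respective line. More of the 507 were at least 2-fold higher there, 12 (2.37%) in PERK WT and 71 (14%) in PERK -/- MEFs. Across the 9367 genes, which share libraries, the Spearman correlation of the NIH3T3 change was 0.17 with PERK WT and -0.02 with PERK -/- MEFs. These values are descriptions, and differences between the lines were not tested.

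Footprints were assigned to Eif2ak3 in the PERK -/- libraries too, at 11.2 TPM without Tg and 17.2 at 8 h, against 6.03 and 15.7 in PERK WT MEFs. In CPM they were fewer than in PERK WT MEFs, 10.99 and 19.1 against 21.3 and 32.7 (74 and 142 against 254 and 365 counts). Gene totals do not show where in the gene these footprints lie, so the knockout could not be checked here.

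Single genes show courses that differ in size or direction. Atf4 had 34.5 TPM without Tg, 551 at 2 h and 576 at 8 h in PERK WT MEFs (LFC 0.06), in place of the fall by 1.5 (log2) in NIH3T3 cells. In PERK -/- MEFs it had 41.4, 34.2 and 58.2 TPM (LFC 0.77), so the 2 h value there lay below the untreated one. Ddit3 was at 442 and 580 TPM in PERK WT MEFs (LFC 0.39) and at 14.2 and 13.4 in PERK -/- MEFs (LFC -0.08). Hspa5 was higher at the late time in both, from 4462 to 7149 TPM (LFC 0.68) and from 2515 to 4376 (LFC 0.80). Id1 fell in both as well, from 164 to 69.9 TPM (LFC -1.23) and from 85.6 to 37.6 (LFC -1.19). The ERSE genes had medians of 0.53 in PERK WT and 0.63 in PERK -/- MEFs. The ER chaperone list had medians of 0.45 and 0.68, and ER-associated degradation 0.26 and 0.79. The mitochondrially encoded genes had -0.41 in PERK WT and 0.80 in PERK -/- MEFs, and their share of the counts in PERK WT MEFs was highest at 1 h, at 0.961%.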

How the data were processed

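Footprints of 13 libraries had been processed by the study's authors. They kept fragments between 22 and 34 nt without the polyA tail, filtered rRNA and tRNA with STAR, aligned to mm10 RefSeq coding sequences (Bowtie2; 30 nt clipped from both ends; transcripts shorter than 100 nt dropped) and quantified with RSEM, in versions the sources used here do not give. The expected counts deposited by the authors are whole numbers without scaling between libraries. The TPM values deposited by the authors are scaled within each library.

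From these, LFC, exact Clopper-Pearson intervals of count ratios, and list counts and medians were computed. Shared coding 28-mers, hydropathy windows (8 residues, mean of at least 2.2, first 30 residues) and promoter motifs were computed as well. Only the 2-fold calls and the intervals were tested on simulated counts. No test between conditions was made. Coding sequences were taken from GENCODE (GRCm38). Named genes are the 15 largest rises and falls with at least 200 summed counts and count LFC of like sign within 0.5, the extreme and most abundant members of each of 40 lists, 7 UPR genes and the 5 genes on each side of the threshold. Members named to complete a small count were chosen after their values were seen. Members and lists were chosen with earlier results of these data known.

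The alternatives were other floors, filters, thresholds and scalings (edgeR TMM, DESeq2), a lowess GC correction (fraction 0.3), thinning, other MEF times and hydropathy limits, and 2 added after seeing the data. R 4.3.3 (DESeq2 1.42.0, edgeR 4.0.16) and Python 3.11.15 (Biopython 1.88, scipy 1.17.1, numpy 2.4.6, matplotlib 3.10.9, pandas 2.3.3, statsmodels 0.14.6) were used.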

Additional observations from a re-analysis of the deposited data

Results flagged for a closer look

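Among lists of at least 10 expressed genes whose medians were at least 0.3 from 0 in both lines, 4 had opposite signs in NIH3T3 cells (7 h over 2 h) and PERK -/- MEFs (8 h over 2 h). Other lists, immediate-early genes among them (-0.35 and 0.08), also had opposite signs but a smaller median in at least 1 line. The difference was not tested because each condition is 1 library and the cells, the medium, the Tg dose and the late time differ. Sterol synthesis and uptake genes had a median LFC of -0.51 in NIH3T3 cells and 1.17 in PERK -/- MEFs, with -0.06 in PERK WT MEFs. Translation initiation and elongation factors had 0.40 and -0.53 (PERK WT -0.04). Cytosolic ribosomal proteins had 0.38 and -0.68 (PERK WT -0.0070). The mitochondrially encoded proteins, chosen after their values were seen, had -1.26 and 0.80 (PERK WT -0.41).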

How the results depend on the processing

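With 1 library per condition, depth limits weakly covered genes, and intervals hold counting error only. No replicate could be left out. No paired analysis was possible because each condition has a single library and no test was made. The counts of genes at least 2-fold higher (480) and lower (587) moved beyond 1.5 times in these settings: 1054 lower with a floor of 1 TPM, 294 higher and 919 lower with CPM (floor of 4 CPM), 968 lower with CPM of the thinned 7 h counts, 290 lower among genes with at least 100 summed counts, 59 higher and 148 lower at 3-fold, and 1721 and 1421 at 1.5-fold. Of the 480 higher genes 402 stayed called with a pseudocount of 1 TPM and 248 with CPM. Of the 587 lower genes 534 and 503 stayed called in these settings. The median LFC over all genes (0.06) was 0.095 with a floor of 1 TPM, 0.090 with a pseudocount, 0.13 with a mean TPM of at least 5, 0 without a filter, 0.15 with TMM and with DESeq2 factors (computed from counts, applied to TPM, whose ratio already exceeds that of counts by a median of 0.12), 0.16 with at least 100 counts and 0.022 with TMM factors on CPM (added after seeing the data). It turned to -0.013 with CPM and -0.012 with CPM of the thinned library. The cause was not tested. Across these settings 1888 values of named genes moved by no more than their counting interval reaches and 205 moved further. None of a gene past 2-fold changed sign. Part of the 1888 was fixed in advance, because filters on expression, counts or copies change which genes are kept and not a gene's own LFC. Hist1h2ao has no finite interval, so its values could not move beyond it. Of 516 list medians 469 stayed within the 95% interval of the median over the list's genes, which is wide in short lists, 41 moved beyond it and 6 changed sign. By size or sign 114 moved beyond 1.5 times or to the other sign, 87 of them within that interval. The ID and SMAD feedback median (0.09) was 0.41 with a mean TPM of at least 5 and 0 thinned, and that of the BCL2 family (-0.03) -0.25 with a floor of 1 TPM. The sign changed only for secreted matrix (0.015 with TMM and 0.019 with DESeq2 factors), the BCL2 family (0.015 and 0.017) and nuclear-encoded oxidative phosphorylation (-0.025 with CPM and -0.017 thinned). The integrin median (0) was -0.27 with a floor of 1 TPM and -0.34 with CPM, and the Zfp median (-0.22) -0.0036 without a filter and -0.51 with CPM. Removing the GC trend gave -0.96 for the mitochondrially encoded genes (-1.26 without it). With 1 h as the early MEF time, the PERK WT medians of the higher and lower NIH3T3 genes were 0.36 and -0.19, and with 5 h as the late time the PERK -/- medians were 0.20 and 0.17. A hydrophobic N terminus was found in 26.05% of higher, 19.1% of lower and 19.6% of all genes at a hydropathy of 2.0, and in 14.8% of higher, 12.9% of lower and 11.5% of all genes at 2.5.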
